A study of Mus musculus with 8 samples.

Results

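*Lin28a*, *Lin28b*, *Trim71*, *Hmga1*, *Hmga2* and *Dicer1* are genes of the let-7 microRNA pathway that were followed in mouse ES cells before and after differentiation with retinoic acid (RA). They were chosen by name, and all 6 are on the array, where they have 11 of its 55681 probes and 6 of its 36406 gene or transcript names. The symbol *Lin28* is written *Lin28a* on the array. E14Tg2A.4 is an established mouse ES cell line, and total RNA from 4 untreated cultures and from 4 cultures treated for 72 h with RA was hybridized to 8 single-colour Agilent arrays. The study's methods describe 1 µM all-trans RA added in medium without leukemia inhibitory factor, the cytokine that keeps mouse ES cells self-renewing. The effects of RA and of this medium therefore cannot be told apart. The array labels name no transgene or knockdown, and the cultures are described as biological replicates of 1 cell line.

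The let-7 microRNAs are made from hairpin precursors, which the nuclease Dicer1 cuts to the mature form. Lin28a and Lin28b are RNA-binding proteins that hold these precursors back from maturation, and the mature let-7 microRNAs in turn repress the messages of both *Lin28* genes, of *Trim71*, of *Hmga2*, of *Hmga1* and of *Dicer1*. Trim71 is a TRIM-NHL protein that binds and represses messenger RNAs in ES cells, and the Hmga proteins are architectural chromatin proteins that bind AT-rich DNA. In mouse ES cells let-7 is kept low and is known to accumulate as the cells differentiate. The arrays measure polyadenylated transcripts, so let-7 itself was not measured.

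The microRNAs that connect these genes are shown because they all read the same target letters. RefSeq (GRCm38.p6) gives 9 mature let-7 and miR-98 sequences from 11 genes, and all 9 share the seed, bases 2 to 8 counted from the 5′ end, which stands in capitals in the 4 examples below. A message paired to this seed carries the letters CTACCTC.
mmu-let-7a-5p: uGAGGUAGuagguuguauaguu
mmu-let-7d-5p: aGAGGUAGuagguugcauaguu
mmu-let-7g-5p: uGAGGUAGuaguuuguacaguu
mmu-miR-98-5p: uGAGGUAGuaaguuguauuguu

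The letters CTACCTC occur in 1 of the 11 member probes, the brightest probe of *Hmga2*, at bases 45 to 51 of its 60. The letters were searched on the strand of the probe as deposited, and 0.366% of all 55681 probes hold them (204 probes). None of the brightest probes of 23 other let-7 target genes listed further on holds them. The 30 bases of the *Hmga2* probe around the match are given with the match in capitals. A match is a description of these letters and does not show that the site is used.
Hmga2 probe A_52_P300730: atcaaaacacactaCTACCTCttaagtccc

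The arrays give for each probe a log2 signal, here taken relative to the 75th percentile of the same array, so that 0 is the level of a fairly bright spot. A probe was called when limma gave an adjusted p under 0.05 and the fold change was above 1.5. On this scale the median of all 55681 probes lay at -0.28 in RA relative to untreated cells, and 12044 probes were called lower and 7196 higher. Between 33629 and 37175 of the 59305 spots of an array were well above background, and no spot was saturated. All 11 member probes were well above background on all 8 arrays, apart from 1 spot marked as an outlier and left out. All 10 ES cell markers examined were lower after RA, and all 8 genes that respond to RA were higher, so the arrays follow their labels.

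Of the 6 members, *Lin28b* and *Hmga2* were higher after RA, none was lower by its brightest probe, and the other 4 were not called. Over all probes 34.6% were called in either direction, 21.6% lower and 12.9% higher. Over all genes, each by its brightest probe, 13.9% were called higher and 22.1% lower. Among the 20404 genes well above background on all 8 arrays, as the members are, 18.1% were called higher and 27.5% lower. The median change of the 6 members was 0.12 on the log2 scale, against -0.28 over all genes.

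**Figure D1:**
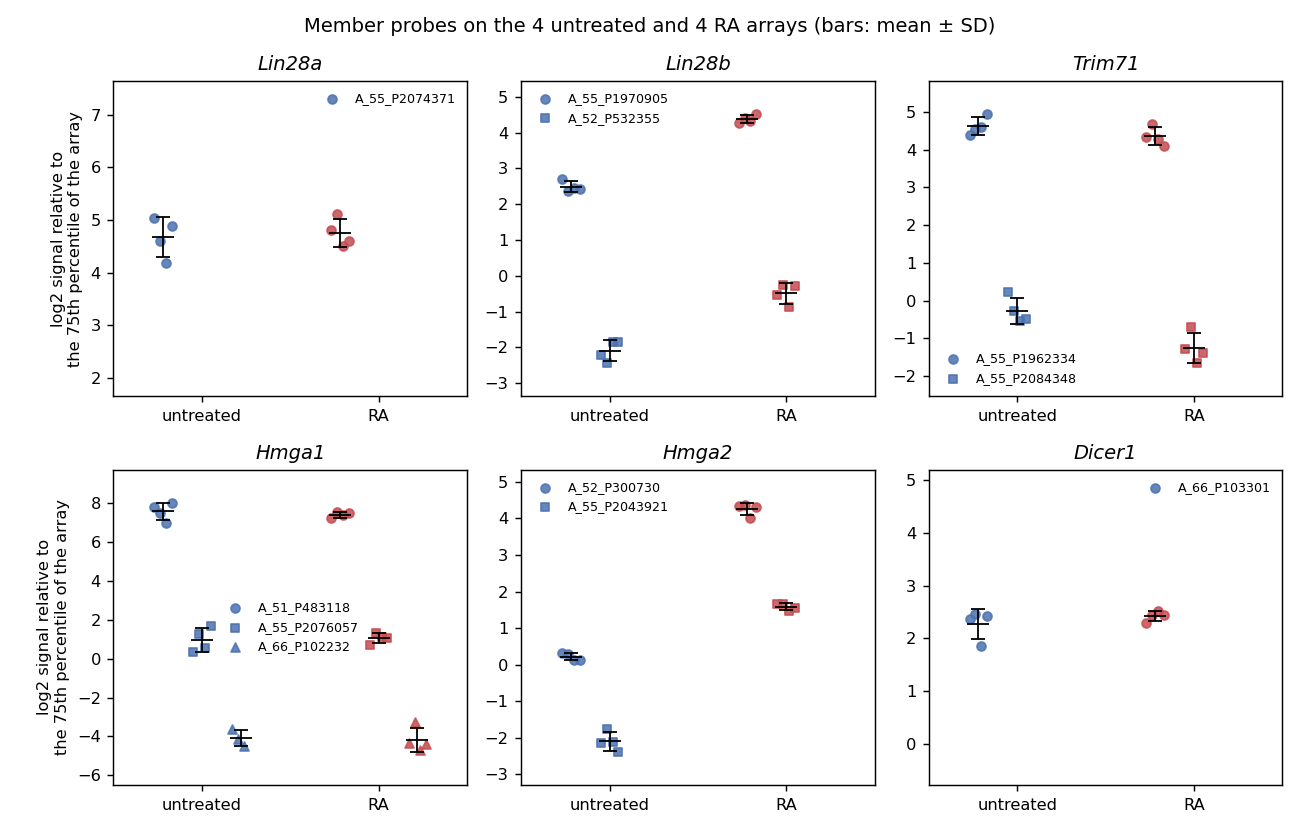
Log2 signal relative to the 75th percentile of the array (vertical axis) for every probe of the 6 genes on the 4 untreated (blue) and 4 RA (red) arrays, with a marker shape for each probe and bars for the mean ± SD. Both probes of *Lin28b* and of *Hmga2* lie higher on all RA arrays than on any untreated array, and the dimmer probe of *Trim71* lies lower. Of all probes 23.8% lie lower in this way, and the share that lies higher is not given here.

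*Lin28a*, the *Lin28* gene that marks pluripotent cells, has 1 probe (A_55_P2074371, NM_145833), which lies on mm9 at chr4:133559245-133559304 on the minus strand. Its log2 signal was 5.03, 4.61, 4.18 and 4.88 on untreated arrays 1 to 4 and 4.80, 5.12, 4.51 and 4.61 on RA arrays 1 to 4. The groups overlapped, and the lowest array and the highest were untreated 3 and RA 2. The difference was 0.09 on the log2 scale (SE 0.22, limma adjusted p = 0.7658), with a 95% interval of -0.42 to 0.60. A rise of up to 0.60 or a fall of up to 0.42 on the log2 scale therefore lies within the interval, and the sign of the difference changed when untreated 3 (-0.08) or RA 2 (-0.03) was left out. Over the same arrays, *Pou5f1* and *Nanog*, which encode core pluripotency factors, fell by 5.54 and 4.55 by their brightest probes. Another *Nanog* probe, A_55_P2007699, was not called at 0.52.

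*Lin28b*, which encodes the paralog that also holds back the maturation of let-7, rose. Its brightest probe (A_55_P1970905, NM_001031772, mm9 chr10:45096468-45096527, minus strand) gave 2.70, 2.38, 2.45 and 2.43 on the untreated arrays and 4.27, 4.40, 4.33 and 4.52 on the RA arrays. The groups did not overlap, and the arrays of each group lay close together. How many of all probes separate upward in this way is not given here or below, while 12.9% were called higher. The mean went from 2.49 ± 0.15 to 4.38 ± 0.11 (SD, n = 4 each), a 3.71-fold increase (log2 1.89, SE 0.14, 95% interval 1.57 to 2.21, limma adjusted p = 1.831e-05). In these bulk cultures more cells with the transcript and more transcript per cell cannot be told apart, and the same holds for every change below. The change ranked at the 95.3 percentile of all probes.

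A second *Lin28b* probe (A_52_P532355) lies 43944 bases away on the genome, at chr10:45140412-45140471, and reads the same annotated transcript 4924 bases from the first. Its log2 signal was -2.22, -2.44, -1.86 and -1.85 on the untreated arrays and -0.55, -0.25, -0.88 and -0.28 on the RA arrays. These groups did not overlap either, and the probe rose 3.04-fold (log2 1.60, SE 0.21, limma adjusted p = 0.000343). Within an array the distance between both probes did not separate the conditions (difference of the changes -0.29, exact two-sided permutation p = 0.2857).

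*Trim71*, the let-7 target that represses messages in ES cells, gave different results with its 2 probes. The brightest (A_55_P1962334, NM_001042503, mm9 chr9:114420415-114420474, minus strand) read 4.40, 4.54, 4.61 and 4.94 on the untreated arrays and 4.34, 4.69, 4.29 and 4.11 on the RA arrays. RA 2 lay among the untreated arrays, and the groups overlapped. The difference was -0.27 (SE 0.18, 95% interval -0.68 to 0.15, limma adjusted p = 0.2475), close to the median of all probes.

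The dimmer *Trim71* probe (A_55_P2084348, chr9:114421669-114421728) reads the same transcript 1254 bases away. Its log2 signal was 0.22, -0.27, -0.53 and -0.49 on the untreated arrays and -1.29, -0.69, -1.66 and -1.38 on the RA arrays. All RA arrays lay below all untreated arrays, which was also so for 23.8% of the probes of the whole array. The probe fell 1.98-fold (log2 change -0.99, SE 0.25, 95% interval -1.55 to -0.42, limma adjusted p = 0.01305). The gap between both probes within an array ran from -5.43 to -4.18 in untreated cells and from -5.94 to -5.38 after RA. These ranges overlapped at their ends, and the change of the dimmer probe minus that of the brighter (-0.72) did not pass over the 4 genes compared this way (exact two-sided permutation p = 0.05714, adjusted p = 0.1143).

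**Figure D2:**
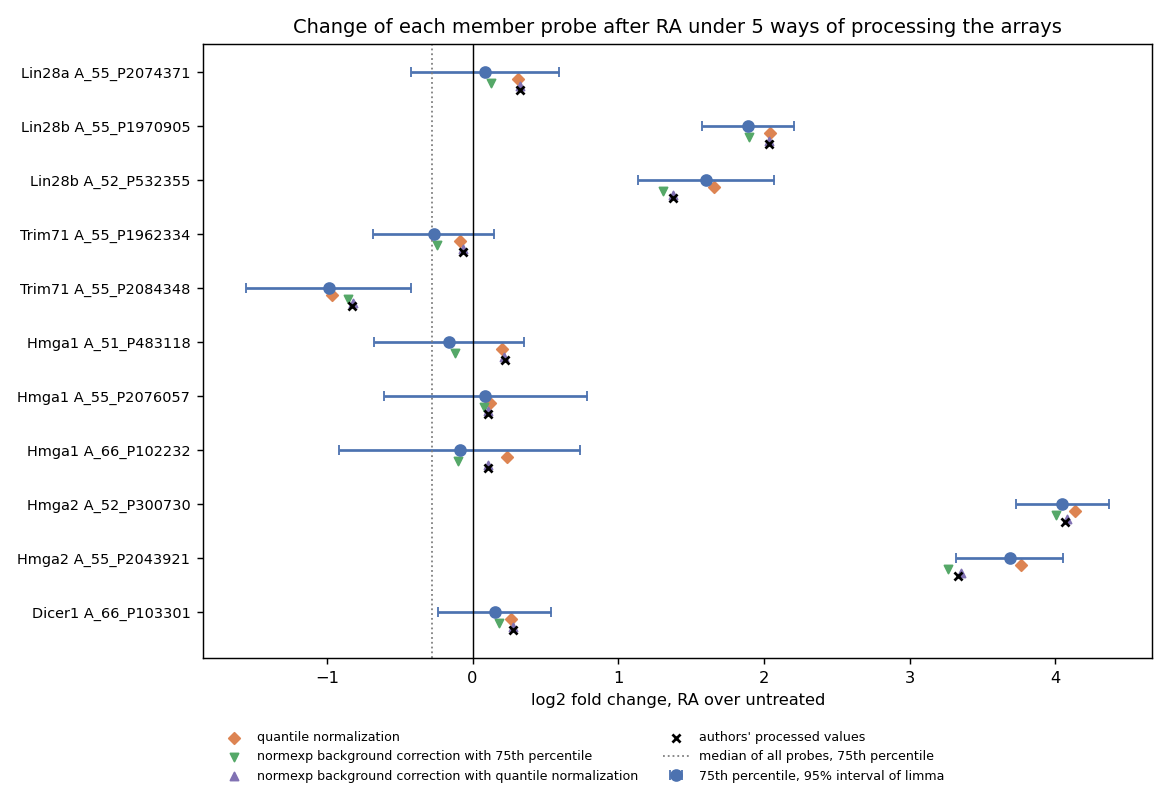
Log2 fold change of RA over untreated (horizontal axis) for the 11 member probes, with the 95% interval of limma for values scaled to the 75th percentile (blue) and the same change under 4 other ways of processing. The Lin28b and Hmga2 probes lie above 1 in all 5, the dimmer Trim71 probe lies below 0 in all 5, and the brightest Hmga1 probe lies on both sides of 0.

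*Hmga2*, which encodes an AT-hook chromatin protein of embryonic tissue and is a classic let-7 target, showed the largest increase of the 6 genes. Its brightest probe (A_52_P300730, NM_010441, mm9 chr10:119798739-119798798, minus strand), the probe with the CTACCTC match, read 0.31, 0.28, 0.14 and 0.13 on the untreated arrays and 4.35, 4.38, 4.02 and 4.30 on the RA arrays. The groups were far apart, and the untreated arrays differed little among themselves. The mean went from 0.21 ± 0.10 to 4.26 ± 0.17 (SD, n = 4 each), a 16.6-fold increase (log2 4.05, SE 0.14, 95% interval 3.73 to 4.37, limma adjusted p = 1.132e-06). The change ranked at the 99.2 percentile of all probes.

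The other *Hmga2* probe (A_55_P2043921, chr10:119800621-119800680) lies 1882 bases away on the same transcript and does not hold the match. It read -2.14, -1.76, -2.10 and -2.38 on the untreated arrays and 1.66, 1.67, 1.48 and 1.55 on the RA arrays. The groups again did not overlap, and the probe rose 12.9-fold (log2 3.69, SE 0.16, limma adjusted p = 2.194e-06). Its change was smaller than that of the brightest probe by 0.36 within arrays (exact two-sided permutation p = 0.02857, the smallest p that 4 against 4 arrays allow), which did not pass over the 4 genes compared (adjusted p = 0.1143).

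*Hmga1*, the second AT-hook gene, was not called by any of its 3 probes. The brightest (A_51_P483118, NM_016660, mm9 chr17:27700543-27700602, plus strand) read 7.81, 7.51, 6.99 and 8.02 on the untreated arrays and 7.22, 7.57, 7.40 and 7.50 on the RA arrays. The untreated arrays surrounded the RA arrays on both sides. The difference was -0.16 (SE 0.23, 95% interval -0.68 to 0.36, limma adjusted p = 0.575), and it lay at 0.20 with quantile normalization, so the data give it no direction. The deposited intensity of this probe was 130500 to 192400 in untreated cells and 163500 to 186200 after RA. Probes A_55_P2076057 and A_66_P102232, designed on other transcript variants of the gene, gave differences of 0.09 (limma adjusted p = 0.8269) and -0.09 (limma adjusted p = 0.8537). The spot of A_66_P102232 on untreated array 4 was left out as an outlier, so this value rests on 3 untreated arrays.

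*Dicer1*, which makes the mature let-7 strand and is itself a let-7 target, has 1 probe (A_66_P103301, NM_148948, mm9 chr12:105926064-105926123, minus strand). It read 2.37, 2.47, 1.86 and 2.42 on the untreated arrays and 2.30, 2.45, 2.53 and 2.45 on the RA arrays. The groups overlapped, and untreated 3 stood below the other 7 arrays. The difference was 0.15 (SE 0.17, 95% interval -0.24 to 0.54, limma adjusted p = 0.4828), and without untreated 3 it was 0.01, the lowest value on leaving out any 1 array.

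The arrays lay on 2 slides, each with 2 arrays of either condition. Within slide 1 and slide 2 the change of *Lin28b* was 1.82 and 1.96, that of *Hmga2* was 4.10 and 3.99, and that of the dimmer *Trim71* probe was -1.18 and -0.80. The 3 changes had the same direction on both slides, and on each slide the RA arrays lay beyond both untreated arrays.

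Members were then compared with each other by the difference of their log2 signals within each array, from which a constant scaling of the array, such as the 75th percentile, drops out. Only the change of this difference is of interest, since the signals of different probes cannot be compared. Of 15 pairs, the 9 that set *Hmga2* or *Lin28b* against another member or each other separated the conditions (exact two-sided permutation p = 0.02857 each, adjusted p = 0.04762 over the 15 pairs). This p is the smallest that 4 against 4 arrays allow. As all 9 hold *Hmga2* or *Lin28b*, they restate the 2 rises above and are not separate support for them. *Lin28b* rose relative to its paralog *Lin28a* by 1.80 on the log2 scale. *Hmga2* rose relative to its paralog *Hmga1* by 4.21, and relative to *Lin28b* by 2.16. The paralogs of both families thus changed unequally after RA. None of the 6 pairs among *Lin28a*, *Trim71*, *Hmga1* and *Dicer1* separated the conditions, and their differences in change ran from 0.06 (*Dicer1* against *Lin28a*, adjusted p = 0.8286) to 0.42 (*Dicer1* against *Trim71*, exact permutation, adjusted p = 0.1948). The 9 pairs were also called with each of the 4 other ways of processing, where *Hmga2* rose relative to *Hmga1* by 3.85 to 4.13. The test uses all 70 splits of the arrays and not the pairing of replicate numbers. Within the 4 replicate pairs the difference of each of the 9 pairs of genes moved the same way in 4 of 4, but 16 sign changes allow no two-sided exact p below 0.125, so none could pass. With 1 array left out, 3 against 4 arrays cannot give a p below 0.05714.

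**Figure D3:**
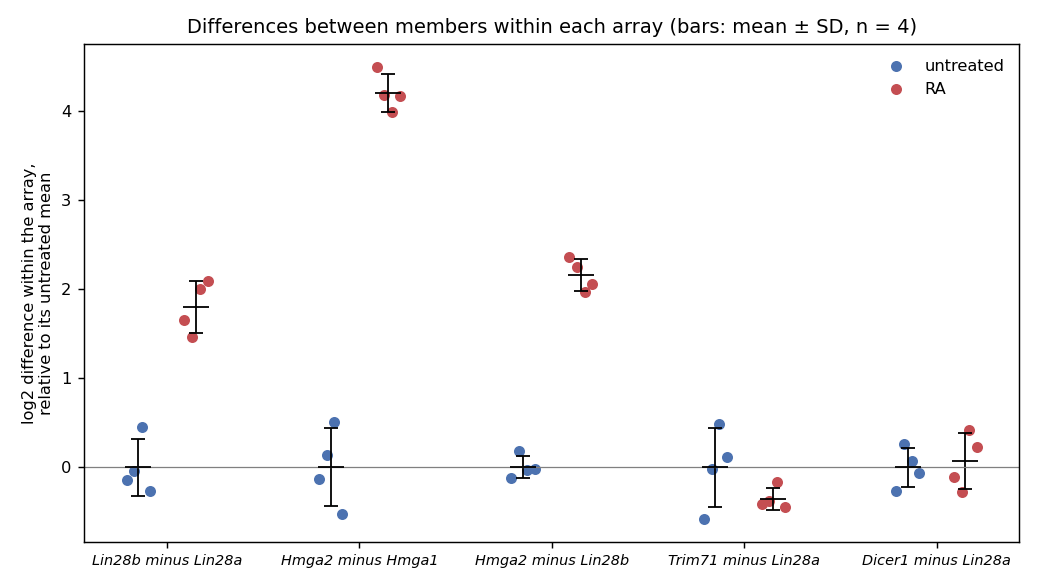
Difference in log2 signal between 2 genes within each array, set to 0 at the mean of the untreated arrays (vertical axis), for 5 pairs of members on the 4 untreated (blue) and 4 RA (red) arrays, with bars for the mean ± SD. Lin28b minus Lin28a, Hmga2 minus Hmga1 and Hmga2 minus Lin28b moved up by 1.80, 4.21 and 2.16, while the points of Trim71 minus Lin28a and Dicer1 minus Lin28a overlap between the conditions.

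For each member the 3 genes with the most similar profile over the 8 arrays were taken from 12391 named genes well above background on all arrays, by the root mean square difference of the log2 values relative to the untreated mean. The genes nearest to *Hmga2* were *Esx1*, *Pxdn* and *Peg3*, at distances of 0.15, 0.17 and 0.18, with changes of 3.88, 3.85 and 3.95. *Esx1* encodes an X-linked homeobox factor, *Pxdn* an extracellular matrix peroxidase, and *Peg3* is a paternally expressed imprinted gene. Among the genes nearest to *Lin28b* were *Mark1* and *Ttc8*, at 0.13 and 0.14, with changes of 1.89 and 1.90. *Mark1* encodes a protein kinase and *Ttc8* a subunit of the BBSome of cilia. For the 12 genes nearest to the other 4 members, the difference lay between -0.32 (*Car7*) and 0.17 (*Haus8*). The same arrays and the same 2 conditions underlie all of these distances, and they say nothing of common control.

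Among genes that process microRNAs or carry them, 4 of 12 were higher after RA, 2 were lower and 6 were not called. Their median change was 0.16. Of genes well above background on all 8 arrays, 18.1% were called higher and 27.5% lower. *Prkra* and *Tarbp2* encode the double-stranded RNA-binding partners of Dicer1 and moved in opposite directions. *Prkra* read -0.95 to -0.30 on the untreated arrays and 1.59 to 1.70 after RA, a rise of 2.20 (SE 0.17, limma adjusted p = 2.131e-05). *Tarbp2* fell by 0.61 (SE 0.13, limma adjusted p = 0.005368). It was no longer called with quantile normalization (-0.36), normexp and quantile (-0.37), the authors' values (-0.38), without untreated 1 (-0.58) or without RA 4 (-0.58). The Argonaute gene *Eif2c4* (Ago4) rose by 1.60, but by 0.89 with normexp background correction and 1.07 with the authors' values, and *Tnrc6c*, which encodes a silencing partner of the Argonautes, rose by 1.48. *Eif2c3* (Ago3) was called lower at -0.79 with overlapping groups (limma adjusted p = 0.04924), and this call was lost with the slide as a block, under each of the 4 other ways of processing (-0.52 to -0.25) and on leaving out any of 6 of the 8 arrays (all but untreated 4 and RA 2). *Drosha*, the nuclease that releases the hairpin, was at -0.53 by its brightest probe, under the fold threshold. Another *Drosha* probe was at -0.59 and was not called either (limma adjusted p = 0.07877).

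Of 8 genes that act on let-7 precursors or their tails, 3 were higher, none was lower and 5 were not called. The median change was 0.15, beside 18.1% higher and 27.5% lower among all genes well above background on all 8 arrays. *Zcchc11* (Tut4), the uridyl transferase that Lin28a recruits to let-7 precursors, read 2.47 to 2.99 on the untreated arrays and 3.55 to 3.77 after RA. The groups did not overlap, and *Zcchc11* rose by 0.96 (SE 0.16, limma adjusted p = 0.001327). *Papd4* (Tent2), another terminal nucleotidyl transferase, rose by 1.46, and *Hnrnpa1*, which encodes an RNA-binding protein, rose by 0.72, a call that was lost without untreated 3 (0.58) and with another probe (0.57). *Zcchc6* (Tut7) was at 0.07 and *Dis3l2*, the nuclease that degrades uridylated precursors, at 0.23, and neither was called. *Khsrp*, which encodes an RNA-binding protein that promotes let-7 maturation, was at -0.57, just under the fold threshold (limma adjusted p = 0.02724). On leaving out untreated 2, untreated 3, RA 2 or RA 4, 1 gene of this list was called lower. The brightest probe of *Msi1* was not called at -0.44, whereas another probe of the gene was called higher.

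Of 23 other genes known as let-7 targets, 12 were higher after RA (52.2%), 1 was lower (4.35%) and 10 were not called. Of genes well above background on all 8 arrays, 18.1% were called higher and 27.5% lower. The median change of the list was 0.63 against -0.28 over all genes. This background depends on the scaling, since the median of all probes was -0.0026 with quantile normalization. *Ccnd2*, which encodes cyclin D2, read -0.85 to -0.32 on the untreated arrays and 2.95 to 3.92 after RA. It rose 16.5-fold (log2 4.04, SE 0.24, limma adjusted p = 6.418e-06), a size close to that of *Hmga2*. The insulin-like growth factor receptor gene *Igf1r* rose by 2.97, the chromatin factor gene *Arid3a* by 2.64, the insulin receptor substrate gene *Irs2* by 2.35 and the nuclear receptor gene *Nr6a1* by 1.88. *Mycn*, the Myc family gene of ES cells, read 4.98 to 5.43 and then 3.66 to 4.12, and fell by 1.30 (SE 0.17, limma adjusted p = 0.0003238). *Myc* was not called at 0.05, and *Insr* and *Arid3b* were not called by their brightest probe but were by another. *Nr2e1* was not well above background on any array, and *Hras* is not named on the array.

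**Figure D4:**
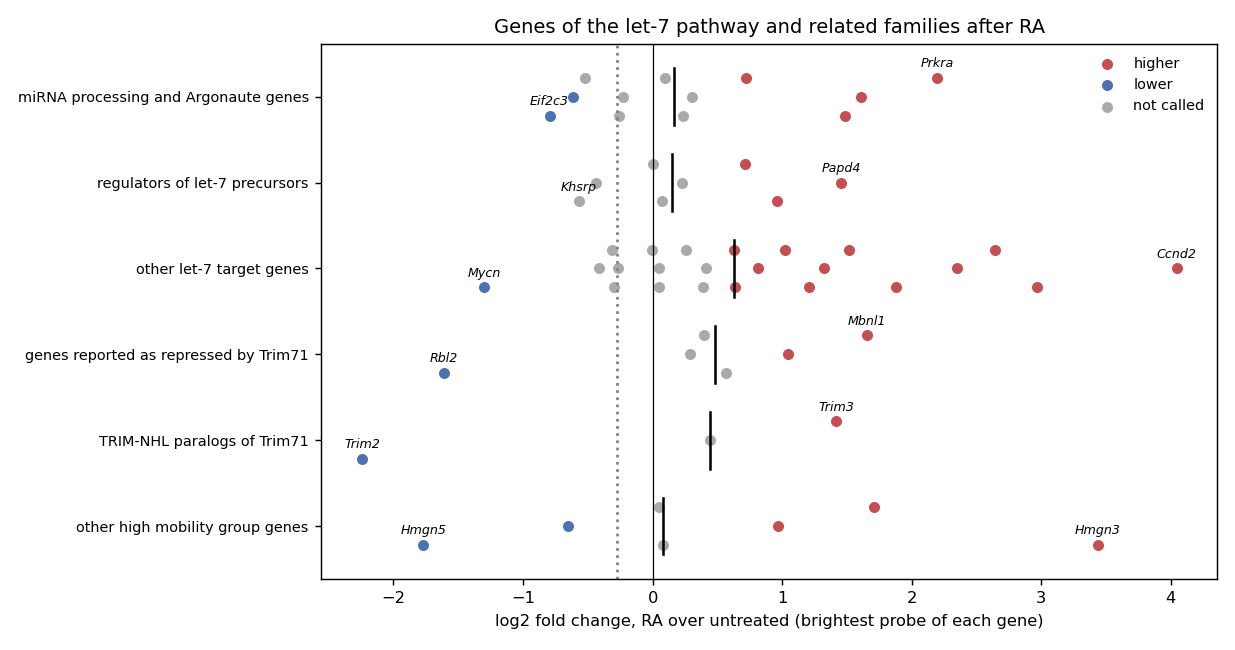
Log2 fold change of RA over untreated (horizontal axis) for the brightest probe of each gene in 6 lists, coloured by whether the gene was called higher, lower or not, with a black bar at the median of each list and a dotted line at the median of all genes. Among the 23 other let-7 target genes 12 are called higher and 1 lower, and Ccnd2 lies at 4.04. Over all genes 13.9% are called higher and 22.1% lower.

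Of 6 genes reported as repressed by Trim71, 2 were higher, 1 was lower and 3 were not called. The median change was 0.48, beside 18.1% higher and 27.5% lower among all genes well above background on all 8 arrays. *Mbnl1*, a splicing factor gene, rose by 1.65 (limma adjusted p = 0.0002196) and *Plxnb2*, a plexin receptor gene, by 1.04. *Rbl2*, which encodes the pocket protein p130, fell by 1.61 (limma adjusted p = 0.0005398), and by 1.00 with the authors' values and with normexp and quantile normalization. *Cdkn1a*, the gene of the cell cycle inhibitor p21, was not called by its brightest probe (0.29) or by 2 other probes, which lay on the other side of 0 (-0.63 and -0.58). The TRIM-NHL paralogs of *Trim71* diverged, since *Trim3* rose by 1.42, *Trim2* fell by 2.24 and *Trim32* was not called at 0.44. Without untreated 3, 2 of the 3 paralogs were called higher.

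Of 7 other high mobility group genes, 3 were higher, 2 were lower and 2 were not called. The median change was 0.08, beside 18.1% higher and 27.5% lower among all genes well above background on all 8 arrays. *Hmgn3*, which encodes a nucleosome-binding protein, read -2.26 to -0.78 on the untreated arrays and 1.86 to 2.09 after RA, and rose 10.8-fold (log2 3.44, SE 0.32, limma adjusted p = 6.322e-05). *Hmgb3* rose by 1.71. *Hmgn5* fell by 1.77, and *Hmgb2*, a gene of proliferating cells, fell by 0.65 but was no longer called with quantile normalization (-0.38), normexp and quantile (-0.39), the authors' values (-0.39) or without untreated 1 (-0.53). *Hmgn2* was higher by its brightest probe (0.97), and other probes of the same gene were called lower, so it has no settled direction. *Hmgb1* and *Hmgn1* were not called by their brightest probe, at 0.05 and 0.08, while 1 of 6 other probes of *Hmgb1* was called higher (0.60).

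Markers of other cell types moved with the rise of *Lin28b* and *Hmga2*. The log2 of the summed signal of 10 ES cell markers was 8.32 to 8.80 on the untreated arrays and 4.38 to 5.49 on the RA arrays. Of 10 primitive endoderm markers, 9 were higher, and their summed level went from 6.89 to 7.31 before RA to 8.25 to 8.46 after it. Such a sum mostly follows its brightest probes. Here the brightest was that of *Sparc*, which read 6.43 to 6.95 before RA and 7.65 to 7.96 after it. The sum therefore says little of the dimmer markers of this list. Of 8 fibroblast markers, 7 were higher, with summed levels of 0.22 to 1.01 and of 4.98 to 5.64, and *Lum* and *Postn* were not well above background on any untreated array. Over all genes, 13.9% were called higher and 22.1% lower. Of 9 neural markers 4 were higher and 1 was lower, and of 10 mesoderm markers 4 were higher and 2 were lower. One of the latter, *Mixl1*, was not well above background on any array, and neither was called lower with the authors' values. The part of a change in cell types in the values of *Lin28b* and *Hmga2* was not tested.

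The promoters of all 6 members were searched on both strands for 4 motifs, since *Lin28b* and *Hmga2* were both called higher. They were taken from RefSeq (GRCm38.p6) as 250 bases before to 50 after each start. The E-box CACGTG, the motif of Myc family factors, was found in 7.15% of 32851 promoters and among the members in *Lin28b* alone. Its first base lies at position -49 relative to the start site, and the 30 bases at chr10:45470233-45470262 on the minus strand of GRCm38.p6 are given with the match in capitals. AGGTCA, a unit of the RA response element, was found in 16.3% of promoters and in none of the members. Direct repeats of AGGTCA with 5 bases or with 2 bases between the copies, which hold the single unit and overlap with it, were found in 0.00913% each and in none of the members. The absence of these letters concerns this window only.
Lin28b promoter: aattgacagagtCACGTGtgctcaggggcc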

How the data were processed

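Expression of E14Tg2A.4 ES cells was measured on 8 single-colour arrays (4 untreated, 4 RA), grouped by the labels. The authors deposited the output of Agilent Feature Extraction (version 10.7.3.1), whose processed intensity is corrected for background but not scaled between arrays, with other columns of flags for outlier, saturated and well-above-background spots. A deposited table of log2 values by the authors, with the same distribution on all arrays, correlated with the scanner values at 0.99936 to 0.99993 and served as an alternative. The scaling of the authors' table is not given in the sources used here. Probe positions are on mm9, and the annotation of exons and UTRs there was not used here.

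In R (version 4.3.3), the log2 processed intensity minus the 75th percentile of each array was taken. The 3671 control spots and 124 to 145 outlier spots per array were left out, and spots of a probe were averaged. RA and untreated arrays were tested probe by probe in limma (version 3.58.1; lmFit, eBayes), with p-values adjusted by Benjamini-Hochberg across 55681 probes, with the study's thresholds (adjusted p under 0.05, over 1.5-fold). A gene is represented by its brightest probe, by the mean of all 8 arrays. The steps were tested on simulated data. The number of arrays limits the precision.

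The members and lists were chosen with earlier results of these data known. Named are all member probes, the called genes of each list with the largest change (up to 3 in each direction, 5 for let-7 targets) and the 3 genes nearest to each member. Some genes chosen this way are not reported here. *Drosha*, *Zcchc6*, *Dis3l2*, *Khsrp*, *Msi1*, *Myc*, *Insr*, *Arid3b*, *Nr2e1*, *Cdkn1a*, *Trim32*, *Hmgb1*, *Hmgn1*, *Pou5f1*, *Nanog*, *Mixl1*, *Sparc*, *Lum* and *Postn* were added after their values were seen. The comparison of probes of 1 gene was also added then.

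Both conditions carry replicate numbers 1 to 4 in the labels. After removal of the mean of each condition, untreated and RA arrays with the same number correlated at r = 0.186, 0.189, 0.104 and 0.151 over 27493 probes. Arrays with different numbers reached 0.142 (untreated 1 and RA 4) and 0.13 (untreated 4 and RA 3), above the value for number 3. The arrays of both these pairs shared a slide, as did those of numbers 1 and 2 but not of 3 and 4. The part of the slide in these correlations was not tested. As every value for equal numbers was over 0.1, they were treated as pairs, a pairing that rests on the labels and the data. Alternatives were quantile normalization, normexp background correction (offset 50) with either scaling, the authors' log2 values, a filter on dim probes, the slide or the replicate as a block, another probe of a gene, and leaving out each array.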

Additional observations from a re-analysis of the deposited data

Results flagged for a closer look

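In 4 of 106 groups of 4 arrays 1 array stood apart by Dixon's criterion, which flags about 1 in 20 groups by chance (5.3 here). *Dicer1* read 1.86 on untreated array 3 and 2.37 to 2.47 on the other untreated arrays. *Tnrc6c* read -0.023 on untreated array 3, against -0.99 to -0.84 on the others. *Hmgn5* read 2.30 on untreated array 2, against 3.20 to 3.33. *Esx1*, the gene nearest to *Hmga2* in profile, read -2.65 on untreated array 2, against -2.98 to -2.93. Without the array concerned, the calls of *Tnrc6c*, *Hmgn5* and *Esx1* and the missing call of *Dicer1* stayed as they were.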

How the results depend on the processing

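*Lin28b* and *Hmga2* were called higher under all alternatives run, at 1.84 to 2.04 and 4.00 to 4.14 with the brightest probe and at 1.30 to 1.73 and 3.27 to 3.80 with the other. The replicate block, fitted because equal numbers were treated as pairs, changed no call of a member in limma (*Lin28b* adjusted p = 0.000557, *Hmga2* 0.0001166). Of the 15 differences between members, 0 passed an exact test within replicate pairs, added after seeing the data, since 4 pairs allow no p below 0.125. *Lin28a* was not called in any setting. Its change was 0.31 with quantile normalization, 0.32 with normexp and quantile and 0.33 with the authors' values, and on leaving out 1 array its change ran from -0.079 to 0.21, with -0.079 without untreated 3 and -0.033 without RA 2. *Trim71* was called lower by its dimmer probe alone (-0.99). The change of *Hmga1* was 0.20 with quantile normalization, 0.22 with normexp and quantile, 0.22 with the authors' values and 0.088 with probe A_55_P2076057, and was never called. For its probe A_66_P102232 these settings gave 0.23, 0.10 and 0.11, and leaving out arrays -0.39 to 0.13, while A_55_P2076057 ran from -0.12 to 0.33. *Arsa* went to 0.017 and 0.02 with normexp and quantile and the authors' values, and *Gm5963* to 0.15, 0.16 and 0.15 with the 3 settings in the same order. The difference *Dicer1* minus *Lin28a* was -0.049, -0.046 and -0.05 there. On leaving out untreated 3, *Chchd3* (-0.033), *Tyro3* (-0.23, and -0.09 without RA 2), *Psmb7* (-0.028), *Tecpr1* (-0.029) and *Haus8* (-0.0054) changed sign, and their highest values on leaving out 1 array were 0.16, 0.15, 0.16, 0.27 and 0.28 in this order. These genes were not called in any of these settings. Probes called lower over the array were 6603 with normexp and quantile and 6583 with the authors' values, against 12044. With quantile normalization the median of all probes was at 0.00 and 48.4% of calls were higher, against 37.4%. Over the 6 pathway lists, 25 genes were higher, and 7 were lower against 4 with quantile, with normexp and quantile, with the authors' values and without untreated 1, with 4 to 8 over the arrays left out in turn. The causes were not tested. Changes smaller than about the fold threshold, as for *Lin28a*, *Trim71*, *Hmga1* and *Dicer1*, are limited by 4 arrays a group.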
